A study of Arabidopsis thaliana with 20 samples.

Results

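The genes described here are the 63 features of the Arabidopsis thaliana count tables whose identifier starts with ATMG, the prefix of genes on the mitochondrial genome, out of 32744 genes counted in all. The identifier alone defines them. The other features were 133 genes of the plastid genome (prefix ATCG) and 32548 nuclear genes. The plants were wild type, sampled as rosettes at Boyes stage 1.09, after 8 days of growth in soil at 21 °C by day and 19 °C by night and 19 days on an automated phenotyping platform where soil water was held at 60%. The labels name a nitrogen-limiting group (nitrate at 2.5 mM, with the remaining water free of nitrate) and a nitrogen-sufficient group (nitrate at 5 mM), with 10 samples in each. In each of the 10 same-numbered pairs the 2 count tables held the same value for all 32744 genes, so that the supplies could not be compared and the data hold 10 distinct libraries, each called here by its replicate number. Which nitrogen supply the 10 libraries received cannot be told apart from the tables. The submitters call the samples biological replicates, but no label says whether a library came from 1 plant or a pool, so the p-values given here measure the spread between these 10 libraries.

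The plant mitochondrial genome encodes a small part of the respiratory chain: subunits of NADH dehydrogenase (complex I, nad genes), apocytochrome b of complex III (cob), subunits of cytochrome c oxidase (complex IV, cox genes) and of ATP synthase (atp genes). It also encodes proteins that attach heme to c-type cytochromes (ccm genes) and ribosomal proteins, ribosomal RNAs and transfer RNAs of the mitochondrion's own translation. The remaining subunits of the same complexes are encoded in the nucleus and imported, and phage-type RNA polymerases made in the nucleus transcribe the mitochondrial genes. In Arabidopsis a large insertion of mitochondrial DNA lies near the centromere of chromosome 2.

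Of the 63 members, 20 could be named. For 17 of them a note in the RefSeq annotation of the nuclear genome (assembly TAIR10.1) gives the ATMG identifier with a protein name, and the nuclear gene that carries the note was aligned to the mitochondrial sequence to find the RefSeq symbol. The other 3 (atp4, trnH and trnafM) carry the name in their identifier. The notes call ATMG01275 (nad1 here) NADH dehydrogenase 1A and ATMG01320 (nad2 here) NADH dehydrogenase 2B, and both genes are interrupted in RefSeq. Which part of nad1 and nad2 these members cover was not checked, so their values need not be those of the whole genes. The named set comprised 5 ATP synthase genes, 5 ribosomal protein genes, 3 complex I genes, 3 cytochrome c maturation genes, cob, cox3 and 2 transfer RNA genes, and it held 51.5% of the counts on members. The other 43 members are given by identifier only.

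The libraries held between 41423334 and 60323158 counts, of which the members held 441080 to 620481. Leaf markers were high, with RBCS1A, a small subunit of Rubisco, at 184470 to 356094 counts per library. The 3 root markers summed to 6.86 to 16.8 CPM (counts scaled to the library total) and the 4 flower markers to at most 0.159, with SUP at 0 in every library, against 16100 to 20046 CPM for the 5 leaf markers.

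Most of the mitochondrial genome recurs on chromosome 2, and copies were aligned for the 17 members that notes name. Alignment of the RefSeq mitochondrial genome (367808 bases) to the nuclear chromosomes placed 17 blocks of at least 1000 bases on chromosome 2 between positions 3239038 and 3509765 (TAIR10.1), with a mean identity of 99.9%, and 1 such block on another nuclear chromosome. The blocks on chromosome 2 covered 72.2% of the mitochondrial genome. The files count 124 nuclear genes inside that span, and all 18 nuclear genes whose notes name a member lie there. For 11 of these 18 copies the longest alignment to the mitochondrial genome had no mismatch or gap. How much of each copy that alignment spanned is not given here. Coordinates are those of TAIR10.1, whereas the reads were aligned to TAIR10.

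The stretch that joins nad3, a complex I subunit, to rps12, a protein of the small ribosomal subunit, is shown because its members had the same counts as their chromosome 2 copies. The mitochondrial sequence (MT:288364-288482, plus strand) and chromosome 2 (chr2:3270328-3270446, plus strand) are identical over these 119 bases. Capitals mark the stop codon of nad3 and the start codon of rps12, with 45 bases between the genes.
nad3-rps12: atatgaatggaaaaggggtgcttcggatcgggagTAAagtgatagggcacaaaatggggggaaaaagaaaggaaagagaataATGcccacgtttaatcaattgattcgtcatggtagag
The coding sequence of atp9, the subunit of the ATP synthase ring, is shown as the member with the most counts per length among the 14 named members with an uninterrupted RefSeq gene, at MT:270961-271185 on the minus strand, and it recurs without a change at chr2:3251856-3252080 on the minus strand. Capitals mark its start and stop codons.
atp9: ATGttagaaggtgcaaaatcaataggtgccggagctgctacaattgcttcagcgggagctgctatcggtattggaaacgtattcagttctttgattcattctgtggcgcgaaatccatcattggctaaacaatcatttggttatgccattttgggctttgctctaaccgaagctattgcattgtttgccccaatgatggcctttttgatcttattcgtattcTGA
A window of ccmFN2, a cytochrome c maturation gene, is shown as a place where the copies differ (MT:291788-291851 and chr2:3273752-3273814, both on the plus strand). Capitals mark a run of A that is 4 bases long in the mitochondrial genome and 3 bases long on chromosome 2.
ccmFN2 mitochondrial: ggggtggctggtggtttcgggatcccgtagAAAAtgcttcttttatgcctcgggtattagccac
ccmFN2 chromosome 2: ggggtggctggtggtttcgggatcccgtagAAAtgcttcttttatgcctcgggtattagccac

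Counts on members and on their chromosome 2 copies were equal or nearly proportional. The gene atp6 (ATMG00410, subunit 6 of ATP synthase) had 30326 counts in its lowest library, a median of 32967.5 and 43139 in its highest, and AT2G07741 had the same count as atp6 in all 10 libraries. The same held for nad3 (ATMG00990, 1431 to 2492 counts) with AT2G07751 and for rps12 (ATMG00980, 1447 to 2866 counts) with AT2G07675. The counts of atp8 (ATMG00480, 20870 to 27800) and AT2G07707 differed by at most 1. Over every gene in the files with a mean of at least 1 count, 16 members had a partner with equal counts in all 10 libraries, and for 14 of them the partner was a gene in the chromosome 2 insertion. Of the partners in the insertion, 10 are annotated as tRNA genes. The members ATMG00100 and ATMG00700 equaled each other, and ATMG00420 and ATMG01160 equaled each other and AT2G07766.

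Where the nuclear gene model is longer or shorter than the mitochondrial gene, the counts differed but kept their ratio. Length did not mark every pair that differed. The copy AT2G07771, as long as ccmC at 771 bases, had 0.967 to 0.977 times its count. The copy of cox3 (subunit 3 of cytochrome c oxidase; AT2G07687, a model of 998 bases over the 798 bases of cox3) had 1.27 to 1.29 times the member's count. The copy of atp9 (AT2G07671, 776 bases against 225) had 1.61 to 1.64 times its count. The copy of ccmFN2 (AT2G07768) had 0.765 to 0.818 times the member's count. The CV of the ratio over the 10 libraries was at most 7.90% among the 18 copies, in the long model AT2G07681 over ccmC, and at most 3.62% in the others. The sources used here do not state how reads that align to several places were counted, and transcripts of the mitochondrial genome and of the insertion cannot be told apart in these counts. In the insertion the files held 637539 to 1092883 counts per library, 4.32% to 6.48% of all nuclear counts. Of these, 329533 to 671617 fell on AT2G07732, which none of the notes used here ties to a member. Without that gene the insertion held 307899 (library 5) to 421266 (library 10) counts. The origin of the counts on AT2G07732 was not tested.

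**Figure D1:**
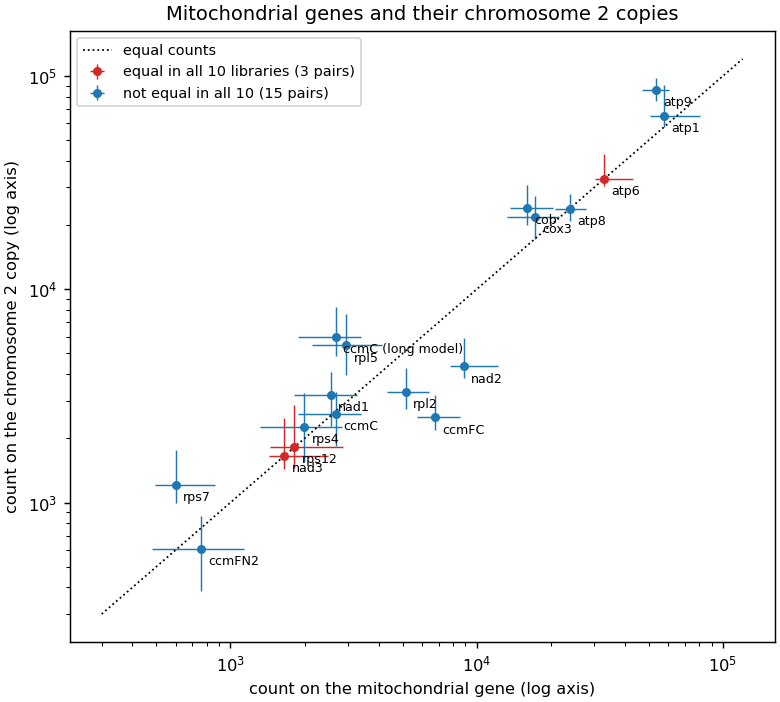
Counts on 17 named mitochondrial genes (x axis, log) and on the 18 chromosome 2 genes whose notes name them (y axis, log). Points are medians and bars run from the lowest to the highest of 10 libraries. The pairs of atp6, nad3 and rps12 lie on the dotted line of equal counts, and atp9 and cox3 lie above it.

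Mean counts per library ran from 0.9 (trnafM) to 59965 (atp1). The 10 most counted held 66.7% of all counts on members and the top 2, both ATP synthase genes, held 23.0%. The gene atp1 (ATMG01190, the alpha subunit of the catalytic head) had 50474 counts in its lowest library, a median of 57693 and 80744 in its highest. The gene atp9 (ATMG01080) had 46850, 53224 and 60264 counts at the same points. The ranges of atp1 and atp9 overlapped. The 10 most counted also included atp6, atp8 and cox3 (13294 to 21511 counts) and 5 members without a name, ATMG01360, ATMG00580, ATMG01170, ATMG00160 and ATMG00270, with mean counts from 18358 to 36717. The 5 named ATP synthase genes together took 37.3% of the counts on members, against 2.75% for 3 named complex I genes, 2.60% for 5 named ribosomal protein genes and 2.09% for 3 named cytochrome c maturation genes. Members without a name may belong to any of these classes. These shares are therefore not those of whole complexes and do not rank them.

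Per length the order of the named genes was similar. Levels were taken as normalized counts per kilobase, with counts divided by size factors from all genes (the all-gene scale) and lengths of the RefSeq genes, for the 14 named members with an uninterrupted gene. The level was 238357 ± 45613 (SD, n = 10) for atp9, 50804 ± 9211 for atp8, 38845 ± 4648 for atp1, 29870 ± 4642 for atp6 and 19381 ± 3814 for atp4. The level was 21844 ± 5041 for cox3 and 13638 ± 1585 for cob. The 4 ribosomal protein genes with a length ran from rpl5 at 5367 ± 645 over rps12 at 5016 ± 602 and rps4 at 1790 ± 127 to rps7 at 1393 ± 247. In the cytochrome c maturation class, ccmC stood at 3382 ± 811 and ccmFN2, the lowest of the 14, at 1278 ± 358, and nad3 stood at 4785 ± 678. Neighbors in this order whose means differed by less than the larger SD of the pair were ccmFN2 and rps7, nad3 and rps12, rps12 and rpl5, and atp4 and cox3. The gap above atp8, to atp9, was 4.11 of the larger SD. In a short gene such as atp9, reads that reach past the gene's ends weigh more in a level per length.

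The members as a whole took a stable share of each library. They held 1.02% of all counts in library 7, a median of 1.05%, and 1.18% in library 9 (mean 1.07% ± 0.0519, SD, n = 10). Since plastid genes took 63.9% to 72.3% of the counts, the share was also taken of nuclear and member counts together. There it was 2.90% in library 1, a median of 3.36%, and 3.96% in library 3 (mean 3.40% ± 0.340). The CV of the share over libraries was 4.85% on all counts and 9.99% on nuclear and member counts. Counts on members were thus steadier against the whole library than against the nuclear counts.

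The mitochondrial share of non-plastid counts rose with the plastid share across the 10 libraries. Pearson's r was 0.88 (permutation test, 100000 resamples, two-sided p = 0.00064, adjusted over 2 relations p = 0.00128) and Spearman's rho was 0.77 (permutation p = 0.0127, adjusted p = 0.0255). Without libraries 1 and 3, which lay farthest from the median plastid share, r was 0.73 (exact permutation p = 0.0362) and rho was 0.55 (exact permutation p = 0.171), so by rank the relation did not pass 0.05 without those libraries. As a share of all counts, the members showed r = 0.20 with the plastid share (permutation p = 0.587) and rho = 0.04 (p = 0.918). Nuclear counts enter both measures of the first relation, and the permutation test takes no account of this. A larger nuclear count lowers both shares. With a steady share of all counts, the non-plastid share rises with the plastid share by construction. The p-values of the first relation therefore do not measure a link beyond this, and the size of that part was not tested. Against the library total, the non-plastid share gave r = -0.29 (permutation p = 0.436) and rho = -0.25 (permutation p = 0.492). Without libraries 7 and 10, r was 0.24 (exact permutation p = 0.577) and rho was 0.07 (exact permutation p = 0.882). The labels name no batch, date or lane, so no value within batches could be given. In bulk tissue, fewer mitochondria or cells and less RNA per mitochondrion cannot be told apart.

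**Figure D2:**
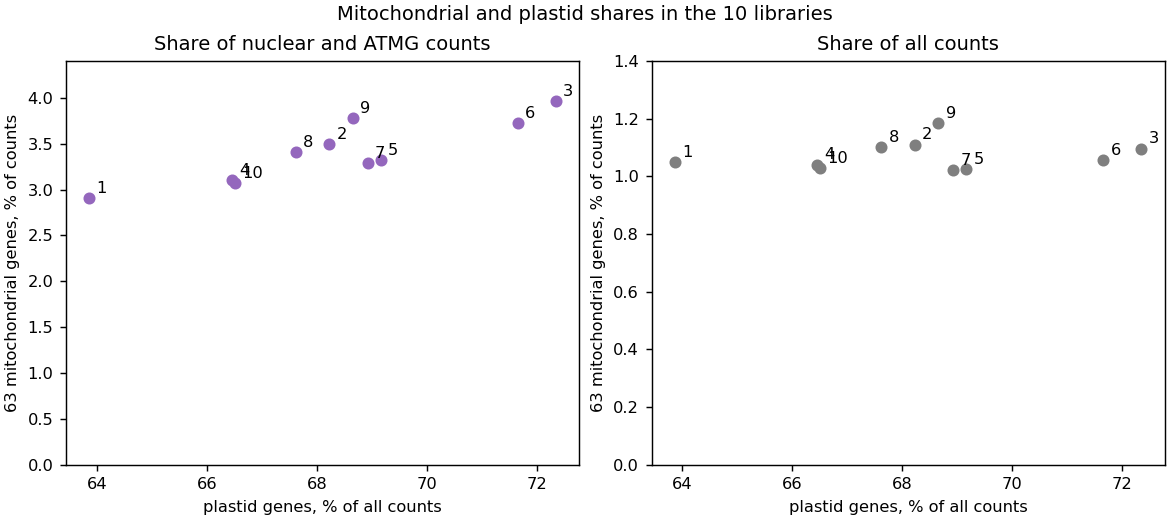
Counts on the 63 mitochondrial genes as a percent of nuclear and member counts (left) and of all counts (right), against the plastid percent of all counts, each point a library labeled by its replicate number. On the left the share runs from 2.90% in library 1 to 3.96% in library 3, and on the right it stays between 1.02% and 1.18%.

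Scaling decided how variable the members appeared. On the all-gene scale (median-of-ratios size factors over all genes), the 56 members with a mean of at least 10 counts had a median CV of 18.0% over the 10 libraries, against 15.5% over the 18442 genes that passed that minimum, 15.5% over 18255 nuclear genes and 15.7% over 131 plastid genes. With library totals as the scale the members' median was 11.6%, and no median over all genes is given on that scale. On the ATMG scale, with size factors from the members alone, the median was 12.0%, and 49 of 56 members had a lower CV there than on the all-gene scale. Factors taken from the members themselves tend to lower the members' CVs by construction. For the 42 members that averaged at least 100 counts, medians were 16.5% and 9.10%. The ratio of the ATMG factor to the all-gene factor was 0.766 in library 1, a median of 0.994 and 1.31 in library 3, a 1.71-fold range that members share on the all-gene scale.

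Of the 56 members, 21 (37.5%) had a CV above 20% on the all-gene scale, where 32.1% of all genes that passed the minimum did. Of these 21, 11 had a mean under 100 counts. With library totals as the scale 11 members passed 20%, but no share of all genes is given on that scale. With a minimum mean of 100 counts 10 of 42 (23.8%) passed 20% on the all-gene scale. Among all genes averaging at least 100 counts 17.0% did. With a minimum mean of 1000 counts 7 of 36 members (19.4%) did, near the 18.2% of all 2090 genes at that level. Median CVs at that level were 16.1% for members and 13.6% for all genes. On the ATMG scale 8 of 56 members (14.3%) passed 20%, where 58.9% of all genes did, and those 8 were also above 20% on the all-gene scale. The gap to all genes is in part built in, since this scale's size factors come from the members alone. Of the 8, 6 had means under 100 counts, where counting error alone gives a CV of 10.2% to 31.0%. That left ATMG01390 and ATMG00020. Members with equal counts in every library are counted separately here. ATMG00420 and ATMG01160 are both among the 8 and the 21, and ATMG00100 and ATMG00700 are both among the 21.

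**Figure D3:**
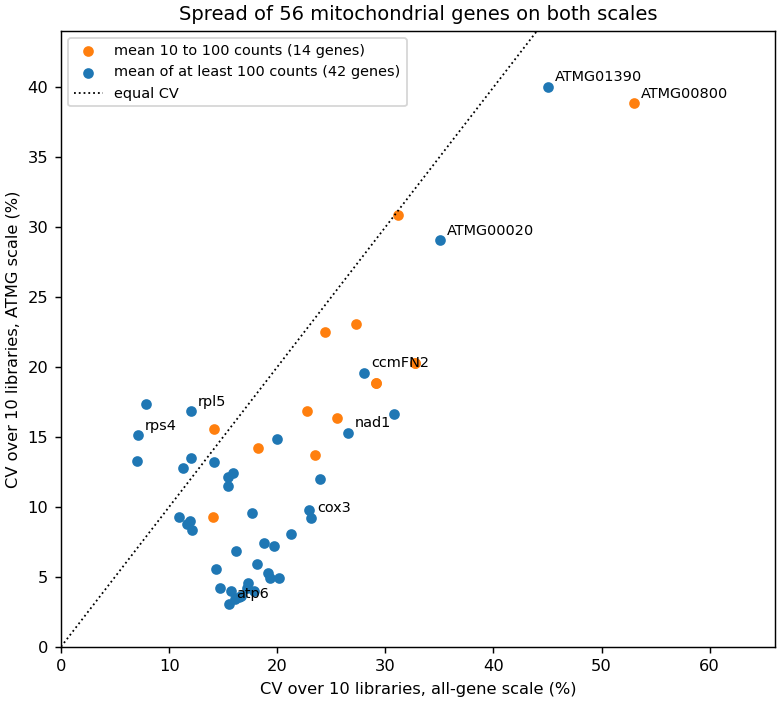
CV over 10 libraries on the all-gene scale (x axis) and on the ATMG scale (y axis) for the 56 members with a mean of at least 10 counts, in percent. Most points lie under the dotted line of equal CV, and ATMG01390 (45.0% and 40.0%) and ATMG00020 (35.0% and 29.1%) are the most variable with means of at least 100 counts.

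A chi-square test of homogeneity over the libraries (9 degrees of freedom, expected counts from the all-gene size factors) asked which members varied beyond counting error. With Benjamini-Hochberg adjustment over 18442 genes, 50 of 56 members (89.3%) had an adjusted p under 0.05, where 71.5% of all genes tested did. The 6 others, ATMG00250, ATMG00350, ATMG00380, ATMG00420, ATMG00460 and ATMG01160, had means of at most 55.9 counts, and ATMG00420 and ATMG01160 hold the same counts. Their smallest adjusted p by that chi-square test was 0.0746, for ATMG00460. All 42 members averaging at least 100 counts passed, where 82.6% of all genes at that level did. The test detects smaller spreads at higher counts, and 36 of these 42 averaged at least 1000 counts, against 2090 of 12432 genes in all. Its expected counts come from the all-gene factors, so the shift that members share on that scale enters each result. The higher share among members is therefore not by itself a trait of single genes. The 7 members under a mean of 10 counts were ATMG01070 (5 to 18 counts), ATMG00230 (4 to 13), ATMG00950 (2 to 9), trnH (1 to 6), ATMG00930 (1 to 4), ATMG01380 (0 to 4) and trnafM (0 to 2). They entered no test, and no member was at 0 in every library.

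Among the 42 members averaging at least 100 counts, the largest spread was in ATMG01390 and ATMG00020. Neither has a name here, and the members' ribosomal RNA genes are not named in the references used. In these ribosome-depleted libraries, counts on such genes would be what depletion left. On the ATMG scale ATMG01390 had 1916 normalized counts in library 7, a median of 2632 and 5836 in library 5, a 3.05-fold range with a CV of 40.0%. On the same scale ATMG00020 had 7991 in library 7, a median of 12352 and 18855 in library 2, a 2.36-fold range with a CV of 29.1%. Libraries 2 and 5 were the highest pair for each of these members, and libraries 7 and 8 were the lowest pair. Their log2 values correlated with r = 0.83 over 10 libraries. Among the same 42 members the next largest were ccmFN2 (511 in library 4, a median of 809.8 and 1006 in library 2; CV 19.6%), ATMG00090 (3743 to 6842; CV 17.3%) and rpl5 (2247 in library 3 to 3774 in library 1; CV 16.9%).

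Among the 42 members averaging at least 100 counts, the smallest CV on the ATMG scale was that of atp6. It had 32741 normalized counts in library 6, a median of 34064 and 36723 in library 7, with a CV of 3.08%. ATMG00570 (3.40%), ATMG00060 (3.54%), ATMG00270 (3.66%) and ATMG00513 (3.99%) followed. The 5 ATP synthase genes had CVs from 3.08% (atp6) to 8.97% (atp1) on this scale, and the 5 ribosomal protein genes from 5.55% (rpl2) to 16.9% (rpl5).

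On the all-gene scale the order of spread among these 42 members changed. ATMG01390 (CV 45.0%) and ATMG00020 (35.0%) again led, followed by ATMG00665 (30.8%), ccmFN2 (28.0%) and nad1 (26.5%), the complex I name matched to ATMG01275. On this scale nad1 had 1551 normalized counts in library 1, a median of 2451 and 3536 in library 3. The gene cox3 had 11378 in library 1, a median of 17295 and 24972 in library 3, with a CV of 23.1%. The members with the smallest CV there were ATMG00080 (7.06%), rps4 (7.09%), ATMG00090 (7.85%), ATMG00285 (10.9%) and ATMG01360 (11.3%). The gene rps4 (ATMG00290, a protein of the small ribosomal subunit) had 1729 in library 1, a median of 1936 and 2115 in library 2 on the all-gene scale, and 1382 to 2257 on the ATMG scale, where its CV was 15.1%. Of the 42 members with a mean of at least 100 counts, 41 had a positive correlation of their all-gene log2 value with the plastid share over the 10 libraries, with a median r of 0.90. At the same minimum the correlation was positive for 46.0% of 12218 nuclear genes outside the insertion (median r -0.09) and for 63.3% of 128 plastid genes (median r 0.42). The exception among members was ATMG00090 (r = -0.23), and rpl5 (0.01) and rps4 (0.12) were near 0. These values share the libraries and the scale and are a description. All-gene size factors come mostly from nuclear genes, so a median r near 0 is largely built in for those. Members held a steady share of all counts, so on this scale a rise with the plastid share is in part built in. The size of that part was not tested.

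**Figure D4:**
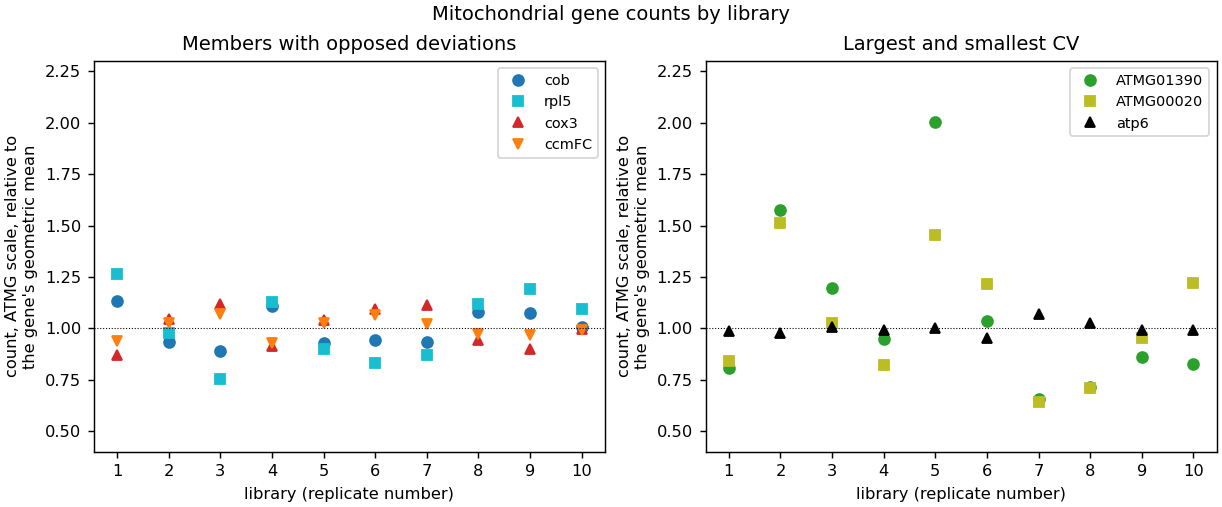
Counts on the ATMG scale relative to each gene's geometric mean over 10 libraries (y axis), by library (x axis). In the left panel cob and rpl5 lie above 1 where cox3 and ccmFC lie below it in libraries 1, 4, 8 and 9, and in the right panel ATMG01390 and ATMG00020 spread widely while atp6 stays near 1.

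Relative to each other, some members moved in opposite directions between libraries. On the ATMG scale cob had 18218 normalized counts in library 1 and 14281 in library 3, the highest and lowest of the 10, with a median of 15656. The gene cox3 had 14856 in library 1 and 19107 in library 3, its lowest and highest, with a median of 17377. The log2 values of cob and cox3 correlated with r = -0.96 over 10 libraries on the ATMG scale, and with r = 0.65 on the all-gene scale. The sign of this relation therefore depends on the scale, and the opposition concerns the members' proportions to each other.

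The set with cob held rpl5 (r = 0.93 with cob), rpl2 (0.92) and ATMG01360 (0.98), all on the ATMG scale. The 4 libraries with the highest values of cob (1, 4, 8 and 9) also gave the 4 highest values of rpl5. The set with cox3 held ccmFC (r = 0.93 with cox3) and ccmC (0.91), and ccmC correlated with nad1 (0.94) and atp4 (0.90). Libraries 1, 4, 8 and 9 gave the 4 lowest values of cox3. On the ATMG scale the 3 pairs of cytochrome c maturation genes had r from 0.63 to 0.90. The 10 pairs of ATP synthase genes ran from -0.61 (atp1 with atp9) to 0.80 (atp8 with atp9) on that scale. On the all-gene scale every pair in both classes was positive, with medians of 0.88 and 0.85, and the difference between the classes was not tested. Over all 861 pairs of the 42 members the median r was 0.02 on the ATMG scale and 0.72 on the all-gene scale. Factors taken from the members remove what they share, so a median r near 0 with negative pairs is in part built in. On the all-gene scale the shift that members share raises r. The size of these parts was not tested.

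Neighbors were alike in some cases. The members nad3 and rps12, 45 bases apart in the RefSeq genome, correlated with r = 0.87 on the ATMG scale, and cob and rpl5, 1903 bases apart, with r = 0.93. The members ccmFC and cox3, 138205 bases apart, also had r = 0.93. Over the 41 pairs adjacent in identifier order the median r was 0.18, with a range from -0.92 (ccmFC with rpl5) to 0.97 (ATMG00080 with ATMG00090). The identifier order is not a measured distance for members without a name. Average linkage on 1 - r split the 42 members into branches of 17 and 25, with cox3, ccmC, ccmFC, ccmFN2, nad1, atp4 and rps7 in the smaller and cob, rpl2, rpl5, rps4, rps12, nad2, nad3, atp1, atp6, atp8 and atp9 in the larger. The leading principal component held 48.0% of the variance of the 42 members and the next held 24.4%. ATMG01390 and ATMG00020 had the largest loadings on the leading component (0.55 and 0.45) with ccmFN2 (0.28) and nad1 (0.25) on the same side, and rpl5 (-0.21) was farthest on the other. All these correlations are over 10 libraries that share a scale, and no test was made.

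**Figure D5:**
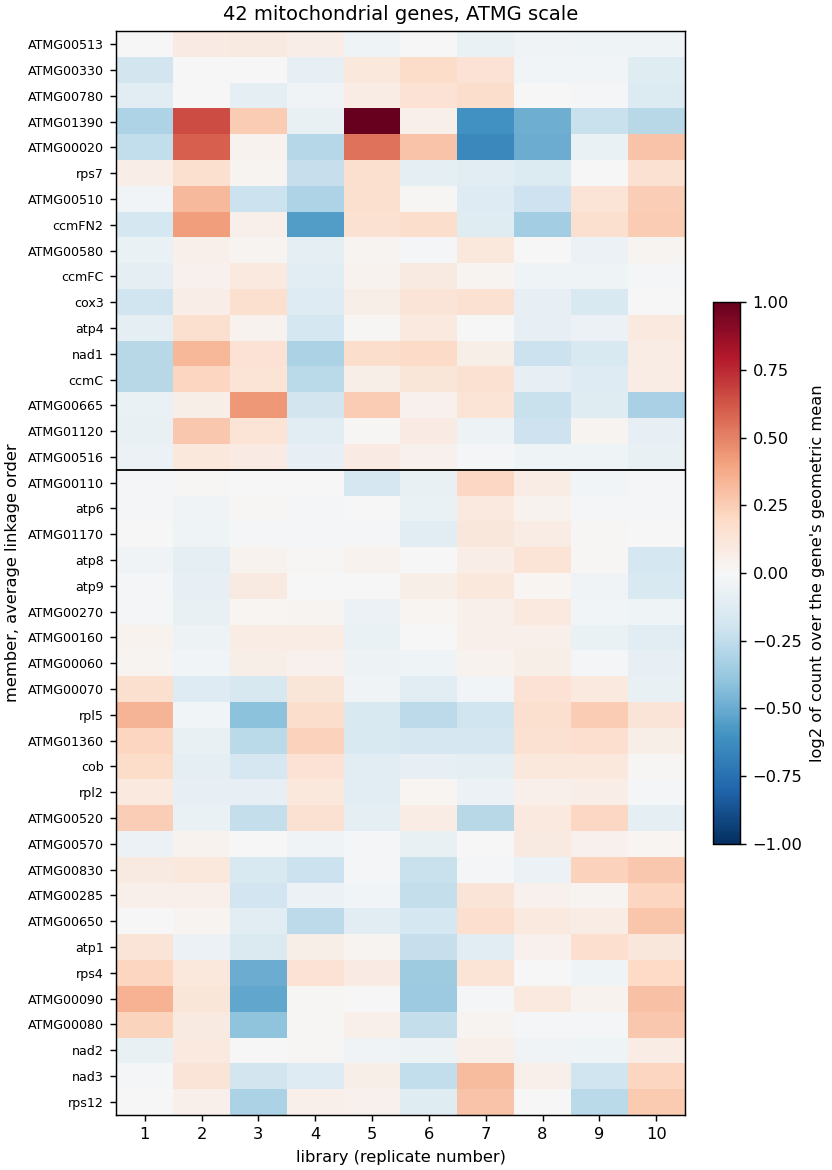
Log2 of the count over each gene's geometric mean, ATMG scale, for the 42 members with a mean of at least 100 counts (rows, average linkage order) in the 10 libraries (columns). The black line parts the branches of 17 and 25 members, and ATMG01390 in library 5 is the largest value.

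A list of nuclear genes for mitochondrial proteins had a median CV of 10.6% on the all-gene scale, where it was 16.5% for the 42 members and 13.0% for all genes averaging at least 100 counts. The list held 22 genes for subunits of complexes I, II and III, cytochrome c, ATP synthase, alternative oxidase and the phage-type RNA polymerases, with mean counts from 121 to 4196. Of these, 1 had a CV above 20% (EMB1467, a complex I subunit, 31.0%), or 4.55%, beside 23.8% of the 42 members and 17.0% of all genes at that minimum. With a minimum mean of 1000 counts the shares of members and of all genes were 19.4% and 18.2%. The CVs of the list and of the members overlapped. By the chi-square test above, 20 of the 22 had an adjusted p under 0.05, where 82.6% of all genes averaging at least 100 counts did. The correlation with the summed member counts over the 10 libraries, on the all-gene scale, was positive for 15 of 22 with a median of 0.42. Over 18156 nuclear genes outside the insertion it was positive for 48.4% with a median of -0.03, beside 68.2% in the list. Over 131 plastid genes it was positive for 63.4% with a median of 0.33, near the values of the list. Both backgrounds had a minimum mean of 10 counts, lower than any mean in the list. The largest was that of AT5G13430 (0.81), a Rieske subunit of complex III, and the lowest that of SDH1-1 (-0.71), the flavoprotein subunit of complex II. The difference in spread between the list and the members was not tested.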

How the data were processed

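Ribosome-depleted, stranded total RNA libraries of rosettes were sequenced by the authors, aligned with STAR to TAIR10 and counted per gene with featureCounts per the labels of 1 sample. The deposited values are raw read counts. Versions and the handling of reads aligning to several places are not given in the sources used here. Size factors were computed with DESeq2 1.42.0 (median of ratios) from all genes or from the 63 members, with edgeR 4.0.16 (TMM) as an alternative, in R 4.3.3. CVs, chi-square tests (genes averaging 10 counts or more), permutation tests (100000 resamples, exact under 10 libraries) and average linkage used Python with scipy 1.17.1, checked on simulated data. Mitochondrial sequence was aligned to RefSeq TAIR10.1 with BLAST 2.17.0. The members and lists were chosen with earlier results of these data known. Named members were the 10 with the highest mean count, the 5 with the largest and the 5 with the smallest CV on each scale (among those averaging 100 counts or more), the highest and lowest per kilobase in each named class and all under a mean of 10 counts, and others that a result turned on. As names were found for 20 of 63, classes cover those 20. Total counts per library (41423334 to 60323158) set the precision, and counting error covers sampling of reads only.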

Additional observations from a re-analysis of the deposited data

Results flagged for a closer look

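Among 60 sets of 10 values examined (the shares, the totals and the named members on each scale), 3 had a library far from the others by Dixon's ratio (above its 95% critical value for 10 samples). Chance flags about 1 in 20 such sets, and the values share libraries. Library 10 held 60323158 counts, with a ratio of 0.533, and the other 9 held at most 50240504. On the all-gene scale rpl5 had 3885 normalized counts in library 9, against 2547 to 3217 in the others (ratio 0.499). On the same scale ATMG00665 had 286.7 normalized counts in library 3, against 114 to 202 in the others (ratio 0.493). On the ATMG scale neither gene had a ratio above the critical value.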

How the results depend on the processing

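No paired analysis was possible because the same-numbered tables of the nitrogen groups are identical. The median CV of members on the all-gene scale (18.0%) was 11.6% with library totals and 14.3% with totals of nuclear genes, and 15.6% to 19.0% with a library left out. Members above 20% CV (21) were 11 with library totals, 10 with a minimum mean of 100 counts and 16 to 25 with a library left out. The ATMG-scale median CV (12.0%) was 9.10% with a minimum mean of 100 counts and 10.6% to 12.8% with a library left out. Members beyond counting error (50) were 46 to 50 with a library left out. The mean share (1.07%) was 0.941% without atp1, 3.40% of nuclear and member counts, and 3.60% when genes in the chromosome 2 insertion were also dropped, an alternative chosen after seeing the data. It was 1.06% to 1.08% with a library left out. The relation with the plastid share (r = 0.88) was 0.20 on all counts (permutation p = 0.587) and 0.82 to 0.94 with a library left out. Without the insertion genes it was 0.89. The relation with the library total (r = -0.29) was 0.24 without the 2 farthest libraries and -0.50 to 0.028 with a library left out, turning positive (0.028) without library 10. The median r of adjacent members (0.18) was 0.09 to 0.19 under the alternatives tried. Alternatives without ribosomal and transfer RNA genes, and the relation between ribosomal RNA shares, were not run, since the members' ribosomal RNA genes are not named in the references used here. Apart from constructions that change the genes or the denominator, the cause of these shifts was not tested. For means from 10 to 100 counts, counting error alone gives members a CV of 10.2% to 31.0%.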
